A study of Homo sapiens with 16 samples.

Results

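The polyamine genes described here are 8 human genes, ODC1, AMD1, SRM, SMS, OAZ1, OAZ2, AZIN1 and SAT1, chosen by name from the 13148 genes of the deposited gradient table. All 8 had a row in that table, and none had a value of 0 in any library. Human 293S cells, an established adherent line of the HEK293 family, had received 1 mM sodium arsenite for 30 minutes or were untreated controls. The material of each treatment was separated on a sucrose gradient, and the total RNA of 8 fractions was sequenced, giving 16 libraries. Each combination of treatment and fraction is a single library, so differences carry no replicate check and no p-value, and neighbours in an order of genes cannot be told apart from technical spread. The deposited values are shares: for every gene they say which part of it was found in each fraction of its gradient, and the 8 parts add up to 100%. Such shares hold no expression level, no read depth is known behind them, and the label of the cell line could not be checked against marker genes.

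Polyamines (putrescine, spermidine and spermine) are small positively charged molecules that bind RNA and are needed for growth. Their level is held within limits largely through translation: the mRNAs of the pathway carry elements that let ribosomes sense polyamines. Antizyme mRNAs are read in full only when ribosomes slip by a base at an early stop codon, which polyamines favour, and antizyme then sends ornithine decarboxylase to the proteasome. The AMD1 mRNA carries a very short upstream reading frame whose peptide stalls ribosomes when polyamines are abundant, and the ODC1 mRNA has a long and structured leader. Arsenite reacts with thiol groups, causes phosphorylation of the initiation factor eIF2 and lowers initiation on most mRNAs. A sucrose gradient sorts mRNAs by the size of the particles they travel in, which grow with the number of ribosomes carried.

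The frameshift sites show the element that the antizyme mRNAs share. Each is given 5′ to 3′ from the GENCODE release 29 transcripts (GRCh38), with the last codon before the early stop and the stop itself in capitals.
OAZ1: cggtggtgcTCCTGAtgcccctcaccc
OAZ2: ctgtggtgcTCCTGAtgcccctcaccc
OAZ3: ctccagtgcTCCTGAgtccctagtagg
The OAZ1 site lies at chr19:2271431-2271457 on the plus strand, the OAZ2 site at chr15:64691501-64691527 on the minus strand and the OAZ3 site, of a further antizyme gene in the table, at chr1:151767212-151767238 on the plus strand, all in coding exons. The 6 bases in capitals were the same in the 3 genes. In OAZ1 the early stop followed 68 codons of a full coding part of 228 codons, and in OAZ2 it followed 32 codons of 189. The annotated coding part leaves out the T that opens the stop codon, and among the transcripts chosen for all genes 5 had such a skip of 1 base, 3 of them those of the antizymes.

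The upstream reading frames that ended before the main start codon are the feature by which AMD1 is best known, and a short one is shown for AMD1, ODC1 and SAT1. The start and stop codons are in capitals.
AMD1: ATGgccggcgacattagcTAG
ODC1: ATGgcgacccgccggtgctataagTAG
SAT1: ATGgtgccagccTGA
The AMD1 frame has 6 codons before its stop, starts at base 27 of the mRNA and lies in the 5′ untranslated part at chr6:110874796-110874816 (GRCh38, plus strand). The ODC1 frame has 8 codons, starts at base 128 and lies at chr2:10448351-10448377 (minus strand), and that of SAT1 has 4 codons, starts at base 63 and lies at chrX:23783235-23783249 (plus strand). Of the 8 members, 6 had at least 1 upstream ATG in the chosen transcript and 5 had a frame that closed before the main start. Over the 13048 genes matched to a transcript, 53.6% had an upstream ATG and 45.9% a closed frame. SRM and OAZ1 had none, with 5′ untranslated parts of 81 and 79 nt, SMS had 1 ATG whose frame ran into the coding part, and AZIN1, with the longest 5′ untranslated part of the members at 1164 nt, had 6 closed frames. The number of closed frames depended on the annotated isoform, being 2 or 5 for ODC1, 1 or 2 for AMD1 and 5 or 6 for AZIN1.

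Position is the mean fraction number of a gene, with its shares as weights, and the shift is the arsenite position minus the control position. Over all genes the median position was 3.10 with arsenite and 4.54 in the control, with a median shift of −1.46 (quartiles −1.97 and −0.98). Across the 13048 matched genes, position and coding length had a Spearman correlation of 0.669 with arsenite and 0.376 in the control, so that longer coding parts lay at higher fraction numbers. Which end of the gradient was taken as fraction 1 is not in the labels. The authors' weighting of the 8 fractions is not stated, and when the libraries were scaled by median-of-ratios size factors, which bring the typical gene to the same value in all 16 libraries, the median shift was −0.23. Members are therefore compared by the relative shift, which is the shift minus the median shift of all genes. A gene is said to have moved when this relative shift reached 0.5 fractions in either direction and its sign survived the removal of any single fraction number from the 2 gradients.

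In the deposited shares all 8 members lay at lower fraction numbers with arsenite than in the control, as did 12920 of the 13148 genes. With size factors AMD1 lay higher by 0.59, and the other members had shifts from −1.55 for OAZ1 to −0.01 for AZIN1. The deposited shares gave −2.00 for OAZ1 and −1.17 for AZIN1. Against the median gene, AMD1 was the 1 member that moved to higher fraction numbers, which 23.6% of all genes did, and SMS and OAZ2 were the 2 members that moved to lower ones, which 24.0% of all genes did. The other 5 members did not meet the rule. Thus 3 of 8 members moved in either direction, where 47.6% of all genes did, so the counts stand near or under the background. The median relative shift of the 8 members was −0.26, and it was 0.12 when fraction 1 was left out. The members spanned relative shifts from −0.71 for SMS to 0.75 for AMD1.

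**Figure D1:**
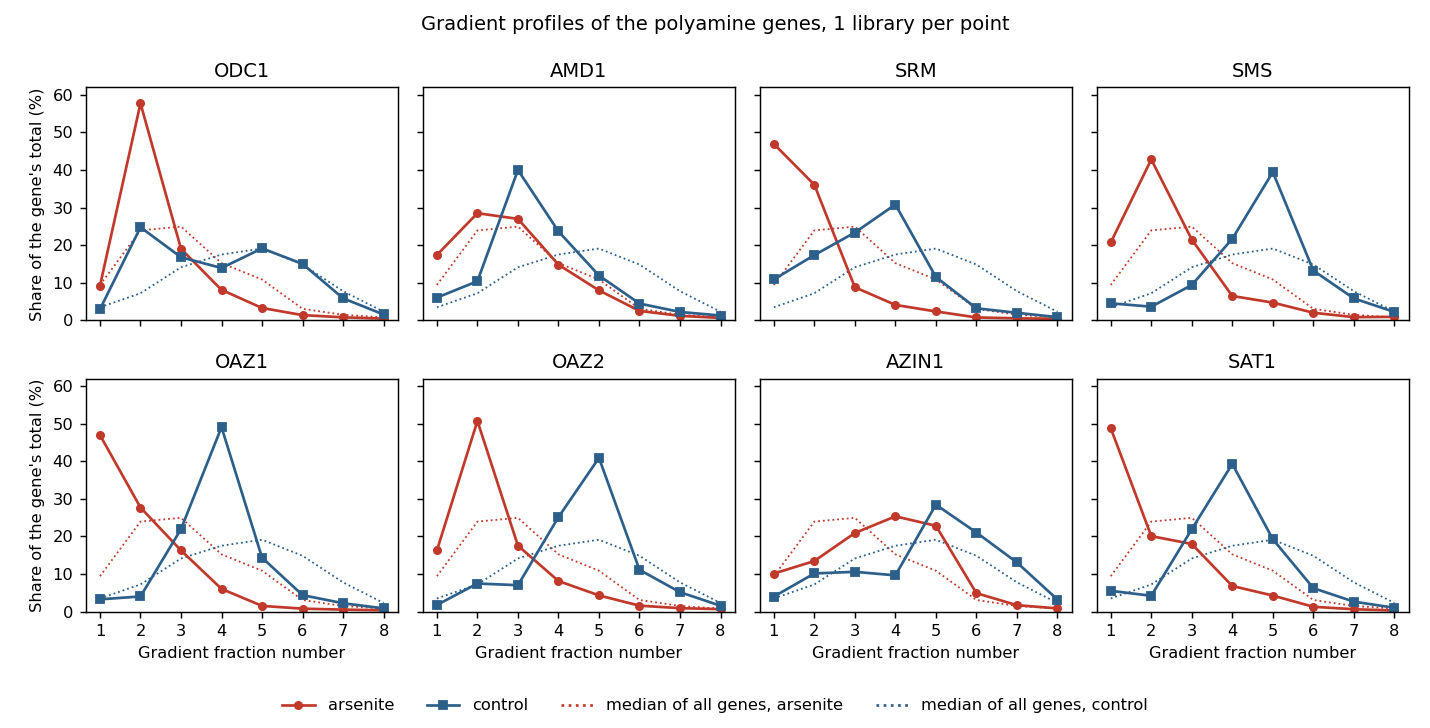
Share of each member's total (%, y axis) in gradient fractions 1 to 8 (x axis) with arsenite (red circles) and in the control (blue squares), 1 library per point, with dotted lines for the median of all genes. With arsenite the profiles of SRM, OAZ1 and SAT1 peaked in fraction 1 and those of ODC1, SMS, OAZ2 and AMD1 in fraction 2, while AZIN1 peaked in fraction 4.

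ODC1 encodes ornithine decarboxylase, which makes putrescine and opens the pathway. In fractions 1 to 8 it had 9.20%, 57.8%, 19.0%, 8.11%, 3.29%, 1.38%, 0.80% and 0.44% of its total with arsenite. The control shares were 2.94%, 24.8%, 16.8%, 13.9%, 19.1%, 15.0%, 5.85% and 1.56%. With arsenite over 50% of ODC1 thus lay in fraction 2 alone, while in the control it was split between a peak in fraction 2 and a broader one in fractions 5 and 6. The share in fraction 2 was high for this gene in both gradients: it lay above that of 98.7% of genes with arsenite and above that of 97.6% in the control. The share in fractions 5 to 8 was 5.91% with arsenite and 41.6% in the control. Thus 14.2% of the control share there remained, where the median gene kept 32.7%. Position was 2.48 with arsenite and 3.98 in the control, and the relative shift of −0.04 placed ODC1 at the middle of all genes. That value changed sign when fraction 4, 5 or 6 was left out. Against the 2729 genes of like control position it was −0.43, short of the threshold, with 25.8% of them at a lower shift.

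AMD1 encodes adenosylmethionine decarboxylase, which supplies the aminopropyl groups for spermidine and spermine. It had 17.4%, 28.5%, 27.0%, 14.8%, 7.97%, 2.50%, 1.19% and 0.64% in fractions 1 to 8 with arsenite. The control shares were 6.05%, 10.4%, 40.0%, 23.7%, 11.9%, 4.46%, 2.22% and 1.28%. AMD1 changed least of the members, with 29.5% of its total lying in other fractions with arsenite than in the control, against a median of 44.6% over all genes. It was also the member with the smallest loss from fractions 5 to 8, with 12.3% there with arsenite and 19.9% in the control, so that 61.9% of the control share remained where the median gene kept 32.7%. AZIN1 kept 46.0%, and the other members kept less than the median gene, from 12.5% for OAZ2 to 23.2% for SRM. AMD1 began with 19.9% in these fractions in the control, where the median gene had 53.9%. Its position was 2.83 with arsenite and 3.54 in the control, a shift of −0.71 in the deposited shares, which had the opposite sign, 0.59, with size factors. The relative shift was 0.75 (0.82 with size factors) and ran from 0.53 to 0.93 with each fraction left out in turn. AMD1 started lower than all but 5.43% of genes, and the 1046 genes whose control position lay within 0.25 fractions of it had a median shift of −0.85. Against those genes the relative shift was 0.15 and the call was lost. GENCODE lists 4 pseudogenes named after AMD1 and 2 named after SRM. No source says how reads that fit such copies were counted, so both profiles are uncertain to that extent.

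SRM, spermidine synthase, adds an aminopropyl group to putrescine. Its shares were 47.0%, 36.1%, 8.79%, 4.10%, 2.36%, 0.77%, 0.53% and 0.41% in fractions 1 to 8 with arsenite. In the control they were 10.9%, 17.4%, 23.4%, 30.8%, 11.5%, 3.20%, 2.0% and 0.85%. SRM thus lay lowest of the members in both gradients, at 1.85 with arsenite and 3.37 in the control, with 83.0% of its total in fractions 1 and 2 with arsenite and 28.3% there in the control. Its relative shift was −0.06 (−0.31 with size factors) and changed sign when fraction 1, 4 or 5 was left out. Against the 621 genes of like control position it was −0.75, with 10.3% of them at a lower shift, and this passed the rule.

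SMS, spermine synthase, adds the next aminopropyl group and turns spermidine into spermine. With arsenite its shares were 20.7%, 42.8%, 21.5%, 6.47%, 4.72%, 2.01%, 0.85% and 0.93% in fractions 1 to 8. The control shares were 4.52%, 3.63%, 9.40%, 21.7%, 39.5%, 13.2%, 5.84% and 2.23%. The peak was in fraction 2 with arsenite and in fraction 5 in the control, and the share in fractions 5 to 8 was 8.51% with arsenite and 60.8% in the control. SMS moved lower, with a position of 2.46 with arsenite and 4.62 in the control and a relative shift of −0.71. Without fraction 5 its relative shift was −0.49 and no longer met the rule. SRM and SMS, which catalyse successive steps, thus differed in position by 0.60 fractions with arsenite and by 1.26 in the control.

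OAZ1, antizyme 1, inhibits ornithine decarboxylase and polyamine uptake. Its shares were 47.0%, 27.7%, 16.3%, 6.02%, 1.50%, 0.76%, 0.51% and 0.32% in fractions 1 to 8 with arsenite. In the control they were 3.24%, 4.01%, 21.9%, 49.1%, 14.3%, 4.36%, 2.20% and 0.83%. Nearly 50% of the total lay in fraction 1 with arsenite, and a similar part lay in fraction 4 in the control, the largest share of any member there. The log2 ratio of arsenite to control was 3.50 in fraction 1 and −2.83 in fraction 4, with 1 percentage point added to both shares, so changes of small shares come out too low. The relative shift was −0.54, or −1.32 with size factors, and OAZ1 did not meet the rule because its value was 0.03 without fraction 1.

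OAZ2, antizyme 2, acts on the same enzyme and carries the same frameshift bases, as printed above. With arsenite its shares were 16.3%, 50.7%, 17.5%, 8.12%, 4.29%, 1.56%, 0.89% and 0.63% in fractions 1 to 8. The control shares were 1.74%, 7.46%, 7.01%, 25.1%, 40.9%, 11.1%, 5.15% and 1.54%. OAZ2 thus lay about 1 fraction further along than OAZ1 at its peaks, in fraction 2 with arsenite and fraction 5 in the control, where OAZ1 peaked in fractions 1 and 4. OAZ1 and OAZ2 differed in where 30.7% of the total lay with arsenite and 40.4% in the control. The coding part of OAZ2, at 567 nt, was shorter than that of OAZ1, at 684 nt. The annotated mRNA of OAZ2, at 1934 nt, was longer than that of OAZ1, at 1148 nt. OAZ2 moved lower, at 2.45 with arsenite and 4.58 in the control, with a relative shift of −0.67. Without fraction 5 its relative shift was −0.40 and did not meet the rule. The profile of OAZ2 was close to that of SMS, with 9.60% of the total placed differently with arsenite and 8.68% in the control.

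AZIN1, antizyme inhibitor 1, resembles ornithine decarboxylase but does not act as an enzyme, and it binds antizyme and so spares the decarboxylase. Its shares were 10.1%, 13.4%, 20.9%, 25.3%, 22.8%, 4.88%, 1.69% and 0.83% in fractions 1 to 8 with arsenite. In the control they were 3.97%, 10.1%, 10.6%, 9.63%, 28.4%, 21.0%, 13.1% and 3.19%. AZIN1 lay furthest along of the members in both gradients, at 3.63 with arsenite and 4.80 in the control. With arsenite its peak was in fraction 4, where the other 7 members peaked in fraction 1 or 2. Fraction 5 held 22.8% of AZIN1 with arsenite, against 1.50% of OAZ1, and the share in fractions 5 to 8 was 30.2% with arsenite and 65.7% in the control. Among 3366 genes with a coding part of like length, its position lay above 90.1% with arsenite and above 67.2% in the control. The relative shift was 0.29, below the threshold, and it stayed positive with each fraction left out, from 0.06 without fraction 5 to 0.45 without fraction 3.

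SAT1, spermidine/spermine acetyltransferase, marks polyamines for breakdown or export. With arsenite its shares were 48.8%, 20.1%, 18.0%, 6.79%, 4.25%, 1.26%, 0.61% and 0.26% in fractions 1 to 8. The control shares were 5.51%, 4.19%, 21.9%, 39.3%, 19.2%, 6.23%, 2.61% and 1.01%. SAT1 was the member nearest to OAZ1, with 7.66% of the total placed differently with arsenite and 9.81% in the control, though OAZ1 acts on synthesis and uptake and SAT1 on breakdown. The share in fractions 5 to 8 was 6.38% with arsenite and 29.1% in the control. The relative shift of −0.46 (size factors: −1.07) turned to 0.21 without fraction 1, and SAT1 did not meet the rule.

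In order of position, the members with arsenite were SRM (1.85), OAZ1 (1.93), SAT1 (2.05), OAZ2 (2.45), SMS (2.46), ODC1 (2.48), AMD1 (2.83) and AZIN1 (3.63). The order in the control was SRM (3.37), AMD1 (3.54), OAZ1 (3.93), SAT1 (3.97), ODC1 (3.98), OAZ2 (4.58), SMS (4.62) and AZIN1 (4.80). AMD1 held the second place from the high end with arsenite and the second from the low end in the control. Set beside genes with a coding part of like length, SRM lay below all but 3.59% of such genes with arsenite and all but 3.43% in the control. ODC1 lay below all but 9.54% with arsenite and all but 15.1% in the control. AMD1 lay in the middle with arsenite, above 49.4%, but below all but 5.63% in the control.

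The share in fraction 1 with arsenite was higher for the members with the shortest mRNAs. SAT1, OAZ1 and SRM, with annotated mRNAs of 1065, 1148 and 1266 nt, had 48.8%, 47.0% and 47.0% there, and SMS and OAZ2, with 1837 and 1934 nt, had 20.7% and 16.3%. ODC1 (2653 nt), AMD1 (3438 nt) and AZIN1 (4721 nt) had 9.20%, 17.4% and 10.1%. Over the 8 members the Spearman correlation of this share with mRNA length was −0.881 with arsenite and −0.190 in the control. Over all 13048 matched genes it was −0.473 with arsenite and −0.103 in the control. These describe genes measured in the same 2 libraries and with 1 annotated transcript per gene, and genes are not independent replicates. Compared with the fraction 1 shares of genes of like mRNA length, SAT1 lay above 61.2% of them, OAZ1 above 65.2% and SRM above 75.0%, and the highest was AMD1, above 84.8%, with 17.4% against a median of 7.84%.

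**Figure D2:**
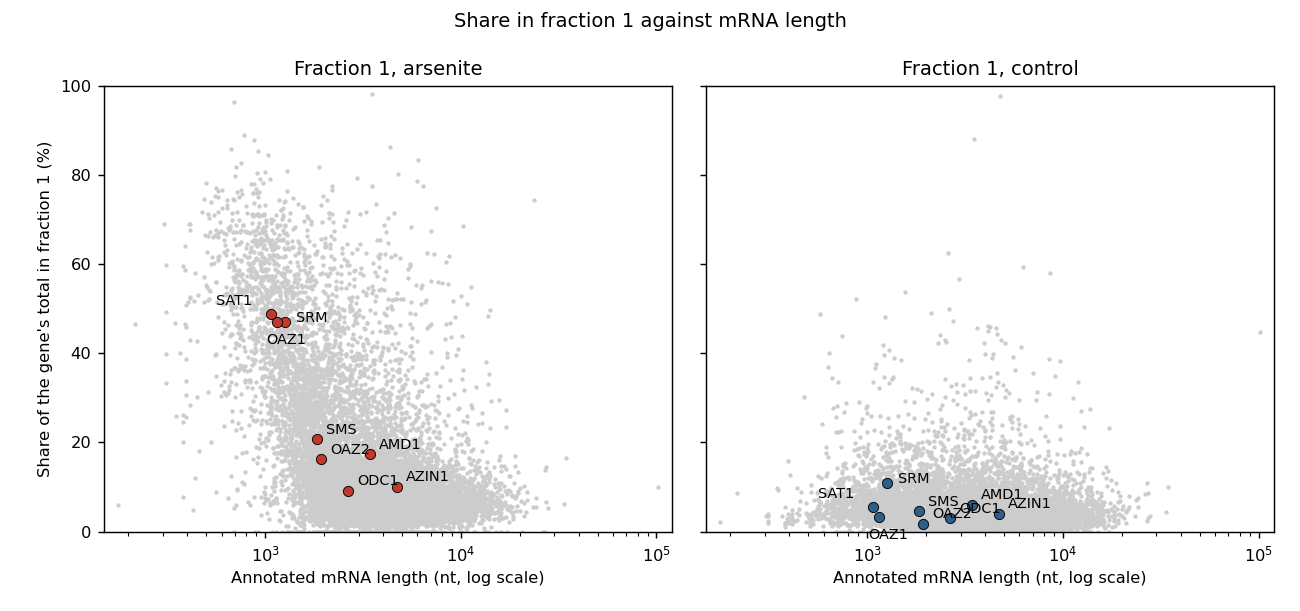
Share of a gene's total in fraction 1 (%, y axis) against annotated mRNA length (nt, log x axis) with arsenite (left) and in the control (right). Grey points are all matched genes and labelled points the 8 members. With arsenite the 3 shortest members sit between 47.0% and 48.8% and the other 5 between 9.20% and 20.7%, while in the control all 8 lie between 1.74% and 10.9%.

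The relative shifts of several members depended on the genes they were set against. Against genes of like control position 5 members moved lower: SRM (−0.75), SMS (−0.69), OAZ1 (−0.94), OAZ2 (−0.69) and SAT1 (−0.85), where 20.3% of all genes did, and none moved higher, where 17.8% did. Against genes of like coding length 1 member moved lower and 1 higher, where 23.4% and 22.6% of all genes did. Against genes of like mRNA length none of the members moved lower, where 21.3% of all genes did. The values were −0.43 for SMS and −0.42 for OAZ2, short of the threshold, and 0.49 for SRM, 0.07 for OAZ1 and 0.19 for SAT1. AMD1 lay at 0.86 against genes of like coding length and 0.72 against genes of like mRNA length, and met the rule in both, and 20.7% of all genes moved higher against genes of like mRNA length. ODC1 and AZIN1 did not meet the rule against any of these 3 comparison sets. The part that mRNA length has in the shifts was not tested.

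**Figure D3:**
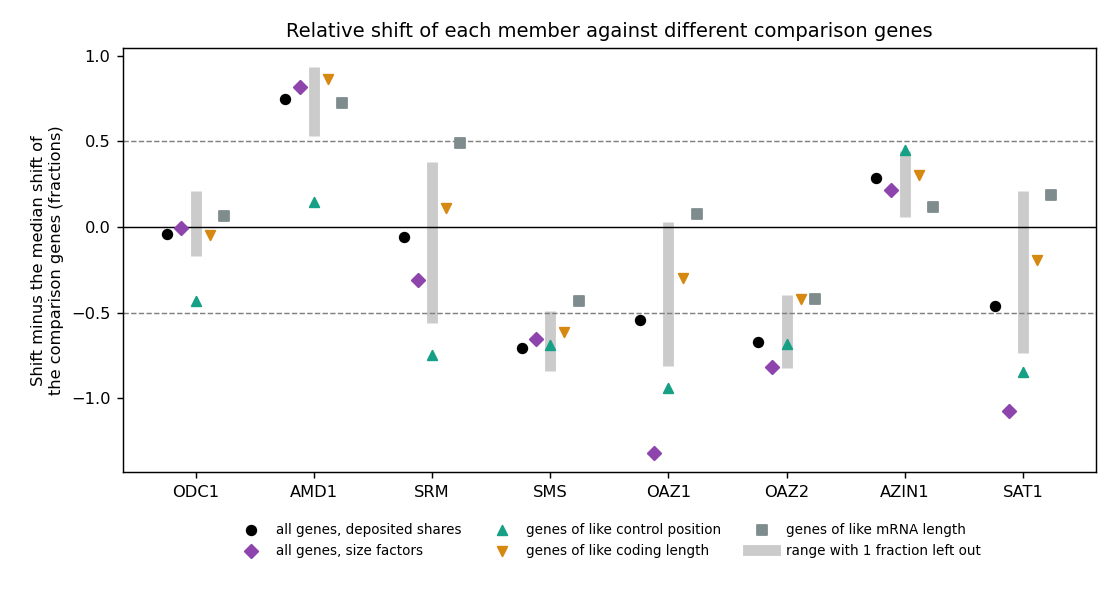
Shift of each member minus the median shift of the comparison genes (fractions, y axis) for the 8 members (x axis). Markers show the comparison with all genes in the deposited shares and with size factors, and with genes of like control position, coding length or mRNA length. Grey bars span the values with each fraction left out, and dashed lines mark 0.5 and −0.5. AMD1 lies above 0.5 in 4 of the 5 comparisons, and OAZ1 and SAT1 range from −1.32 and −1.07 to above 0.

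Of 26 further genes of polyamine metabolism, 23 were in the table. The list was chosen with earlier results of these data known, so its counts are described and no excess is read from them. Of these, 1 moved higher, 10 moved lower and 12 did not meet the rule, with a median relative shift of −0.38, against 0 for all genes by construction. Over all genes 23.6% moved higher and 24.0% lower. With size factors 11 of the 23 moved lower and 1 higher, where 26.4% of all genes moved lower and 28.7% higher. Against genes of like control position 9 of the 23 moved lower and 2 higher, where 20.3% and 17.8% of all genes did. Lengths were known for 22 of the 23. Of these 22, 7 moved lower and 0 higher against genes of like coding length, where 23.4% and 22.6% of all genes did. Against genes of like mRNA length 6 moved lower and 1 higher, where 21.3% and 20.7% of all genes did. The counts of the small groups that follow stand against the 24.0% of all genes that moved lower. Among the 4 genes that make or use precursors of polyamines, 3 moved lower. ARG2, the mitochondrial arginase, which makes ornithine, lay at 2.18 with arsenite and 5.29 in the control, a relative shift of −1.66. OAT, which converts ornithine to a precursor of glutamate and proline, lay at 2.67 with arsenite and 5.89 in the control (−1.76). MAT2B, a regulatory subunit of the enzyme that makes S-adenosylmethionine, moved lower (−0.56), but it missed the threshold under size factors (−0.35) and against genes of like control position (−0.45), coding length (−0.44) or mRNA length (−0.36). Its catalytic partner MAT2A did not meet the rule at −0.32, but under size factors it did, at −0.61.

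The enzymes that place hypusine, an amino acid made from spermidine, on the translation factor eIF5A, and the factor itself, gave 2 genes moved lower of 4. EIF5A had 4.82% of its total in fractions 5 to 8 with arsenite and 73.6% in the control, and its relative shift was −1.17. For DHPS, which starts hypusine synthesis, it was −1.20 (size factors: −1.97). DOHH, which completes it, had one of −0.36 and EIF5A2 one of −0.09, and neither met the rule. Of the 5 genes of methionine salvage, which recycles the by-product of spermidine and spermine synthesis, APIP (−1.07) and ADI1 (−0.65, and −1.14 with size factors) moved lower, though ADI1 did not against genes of like coding length (−0.39). MTAP (−0.09, and 0.27 with size factors), ENOPH1 (−0.38, and −0.15) and MRI1 (−0.45) did not meet the rule, though MRI1 did with size factors (−0.59).

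Of the further catabolic genes SAT2 (−0.73, and −1.16 with size factors) and PAOX, the peroxisomal polyamine oxidase (−0.62), moved lower, and SMOX, spermine oxidase, had a relative shift of 0.26 and did not. SAT2 did not meet the rule against genes of like coding length (−0.45) or mRNA length (−0.05). PAOX, which is listed at 0 in 1 library, did not meet it against genes of like control position (−0.11) or mRNA length (−0.35). The value for OAZ3, which is listed at 0 in 2 libraries, was −0.07 (size factors: −0.71), and that for ADC was −0.33 (size factors: −0.78). RefSeq lists ADC as a synonym of both AZIN2, an antizyme inhibitor gene, and GADL1, and it was taken here as AZIN2, which the deposited table does not settle. Neither met the rule with either weighting, but both did against genes of like control position (OAZ3 −0.71, ADC −0.68), and OAZ3 moved higher against genes of like mRNA length (0.60). The OAZ3 transcript taken for this length, of 708 nt, has an annotated 5′ untranslated part of 0 nt, so the length may be too short. Of 5 genes tied to transport, ATP13A3, a P-type ATPase linked to polyamine transport, was the 1 that moved higher. It lay at 3.65 with arsenite and 4.46 in the control (relative shift 0.64). Against genes of like coding length (0.40) or mRNA length (0.29) it did not meet the rule. SLC3A2, the heavy chain of several amino acid carriers, moved lower (−0.54), but not against genes of like control position (−0.33) or mRNA length (−0.35). SLC7A1, an arginine carrier, had a relative shift of 0.33, with 37.9% in fractions 5 to 8 under arsenite and 63.6% in the control, and met the rule against genes of like control position (0.73). ATP13A2, a lysosomal polyamine exporter, and SLC18B1, a vesicular carrier, each had one of −0.17 and did not meet the rule.

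**Figure D4:**
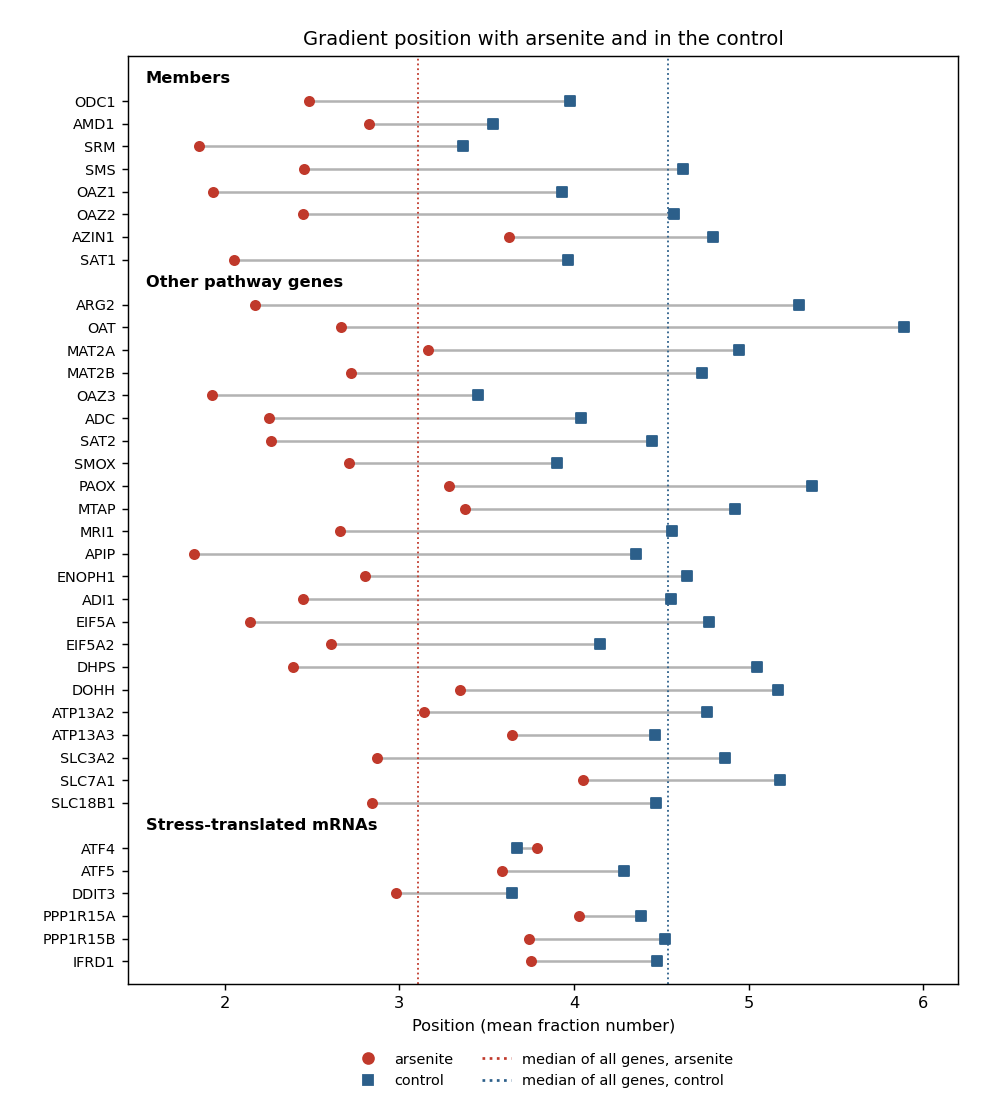
Position (mean fraction number, x axis) with arsenite (red circles) and in the control (blue squares) for the 8 members, 23 other pathway genes and 6 stress-translated mRNAs. Dotted lines mark the medians of all genes, 3.10 with arsenite and 4.54 in the control. Among the members AZIN1 alone lies to the right of the arsenite median, and SMS, OAZ2 and AZIN1 lie to the right of the control median.

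Set beside 6 mRNAs with upstream reading frames that are known for translation under stress, AMD1 lay within their range of relative shifts. Against genes of like control position it lay below them, at 0.15, where the 6 ran from 0.26 for DDIT3 to 1.05 for ATF4. ATF4, the central transcription factor of the response to eIF2 phosphorylation, started close to AMD1 but lay at 3.79 with arsenite and 3.67 in the control, where AMD1 lay at 2.83 with arsenite and 3.54 in the control. By position in both gradients together DDIT3 was the nearest of the 6 to AMD1, at 2.98 with arsenite and 3.65 in the control (relative shift 0.79), while the relative shifts nearest to that of AMD1 were those of ATF5 (0.75) and IFRD1 (0.74). The relative shifts of the 6 ran from 0.68 for PPP1R15B to 1.57 for ATF4. In position with arsenite AMD1, at 2.83, lay below all 6, of which DDIT3 was the lowest at 2.98. The 6 were chosen with their behaviour in these libraries known, so no count is read from them. For the same reason their range is no test of AMD1 or of any other member.

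The genes whose 16 shares were most like those of a member were found among the 11625 genes with no value of 0, by the part of the total placed in other fractions, averaged over the gradients. For OAZ1 they were UQCR10 (3.41%), COX17 (4.45%) and POLR2F (5.84%), and for SAT1 EMC6 (4.04%), RNASEK (4.28%) and DGUOK (5.04%). For SRM they were NINJ1 (4.55%), MAD2L2 (6.34%) and PKIG (6.55%), for OAZ2 C8orf33 (4.68%), BIRC5 (5.10%) and EMC10 (5.29%), and for SMS PPIL1 (4.96%), HDHD2 (5.68%) and DIMT1 (5.96%). ODC1 was nearest to ARRB2 (5.62%), SLC35C1 (7.86%) and CERS2 (8.32%). AMD1 was nearest to SNX24 (7.75%), RRAGD (8.64%) and C2orf68 (8.67%), and AZIN1 to C14orf93 (7.84%), SLITRK5 (8.75%) and NIP7 (9.33%). AMD1 and AZIN1, the members with the highest relative shifts, thus had the least close neighbours by their third-nearest gene.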

How the data were processed

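The authors deposited 1 table of 13148 genes. Its 16 library columns are in the unit fraction: the share of a gene's total in each gradient fraction, summing to 1 within 2.3e-15 per gradient. The 3 deposited score columns are mean fraction numbers and their difference, and recomputed positions differed from them by at most 8.9e-15. The labels' protocols name Trizol and NSR. Values refer to RefSeq exons, per the file headers, and hg19 was used, per the submitters' processing notes. For the aligner, counting, strand and scaling the methods are not stated. Depth is unknown, so no interval is given.

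Groups came from sample titles. Positions, shifts and calls were computed over all genes in Python 3.11.15 with numpy 2.4.6 and pandas 2.3.3. The calls were also run on simulated profiles with planted shifts above the threshold, at set read numbers. The depth of these libraries is unknown, so that run does not say how well the calls hold here. The log2 pseudocount was 1 percentage point. Named genes were the members, a fixed pathway list, 6 stress-translated mRNAs and the 3 nearest genes of each member. Members and lists were chosen with earlier results of these data known.

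For each gene 1 protein-coding GENCODE 29 transcript was taken by symbol (99.2% matched, 731 by another symbol): the principal isoform, or the longest coding part where that was under 50% of the longest. Its coordinates are GRCh38 and were not converted. The printed OAZ3 site came from another OAZ3 isoform than the one taken for length. Genes of like control position lay within 0.25 fractions, and genes of like length within a factor of 1.25.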

Additional observations from a re-analysis of the deposited data

How the results depend on the processing

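No paired analysis was possible because each treatment and fraction has 1 library. The count of members moved higher, 1 as reported, was 2 at a threshold of 0.25 fractions, 0 at a threshold of 1 fraction and 0 against genes of like control position. The count moved lower, 2 as reported, was 0 at a threshold of 1 fraction, 0 without fraction 5, 5 against genes of like control position, 1 against genes of like coding length and 0 against genes of like mRNA length (chosen after seeing the data). Under size factors, genes with no 0 and the other left-out fractions both counts stayed within 1.5 times. For the other pathway genes, where alternatives were chosen after seeing the data, the count moved higher, 1 as reported, was 2 without fraction 1, 3 or 7 and against genes of like control position, 3 at a threshold of 0.25, 0 at a threshold of 1 and 0 against genes of like coding length. The count moved lower, 10 as reported, was 5 at a threshold of 1 and 6 against genes of like mRNA length. The shift of AMD1 was 0.59 with size factors, against −0.71 as reported. The median relative shift of the members ran from −0.69 against genes of like control position to 0.12 without fraction 1. The causes were not tested. No log2 ratio changed sign with pseudocounts of 0.1 or 10, which is so by construction. By Pearson correlation the 3 nearest genes were all kept for SRM, while for OAZ1, SAT1 and AMD1 2 of 3 were kept and for ODC1, SMS, OAZ2 and AZIN1 1 of 3. Unknown depth means that small shares, such as those in fractions 7 and 8, have unknown precision.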
